A study of Homo sapiens with 6 samples.

Results

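The miRNA response of A549 cells to TGF-β1 was described from 3 of the 6 libraries in the series, namely the untreated A549 library and those given 1 or 5 ng/mL of TGF-β1. A549 is an established line from a human lung adenocarcinoma and is used as a model of alveolar epithelium. The other 3 libraries came from BEAS-2B cells, a human bronchial epithelial line, and are used below only for values set side by side. Cells were grown in medium with 10% FBS, left to settle for 24 h, and then treated for 48 h in medium with 1% FBS. Whether the control received that medium too was not given in the sources used here. Total RNA was extracted with TRIzol and made into libraries with the NEBNext Multiplex Small RNA kit. Each dose had 1 library of 1 cancer line, so the spread between cultures is unknown, no test was possible, and every interval below covers counting error only. All 2588 mature miRNAs in the count table were considered. Of these, 1277 had a count in at least 1 A549 library, and 398 had a mean normalised count of at least 10 and are called measured below.

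MicroRNAs are short RNAs cut from hairpin precursors, first in the nucleus by Drosha and then in the cytoplasm by Dicer. One strand, the 5p or the 3p arm, is loaded into Argonaute, and bases 2 to 8 of that strand, the seed, pair with target mRNAs and lower their translation or stability. TGF-β1 signals through receptor kinases and SMAD proteins, drives epithelial cells toward a mesenchymal state, and is known to act on miRNAs both through transcription of host genes and through processing of precursors.

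The mature sequences of miRNAs on which the results turn are given here 5′ to 3′, from RefSeq on GRCh38.p14, with the seed in capitals. RefSeq sequences were matched to 2281 of the 2588 names and to 353 of the 398 measured miRNAs. The first set holds miRNAs that were among the most increased, and their seeds all differ.
miR-143-3p: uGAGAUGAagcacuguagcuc
miR-543: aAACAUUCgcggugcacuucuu
miR-411-5p: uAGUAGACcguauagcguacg
miR-493-3p: uGAAGGUCuacugugugccagg
miR-455-3p: gCAGUCCAugggcauauacac
miR-27a-5p: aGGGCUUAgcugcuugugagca

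The second set holds miRNAs that share a seed and moved in 1 direction, upward for the miR-181 pair and downward for the miR-192/215 pair, the miR-30 group and the miR-17 group.
miR-181a-5p: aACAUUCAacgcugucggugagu
miR-181b-5p: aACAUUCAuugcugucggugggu
miR-192-5p: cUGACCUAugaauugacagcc
miR-215-5p: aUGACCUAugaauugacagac
miR-30a-5p: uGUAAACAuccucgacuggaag
miR-30c-5p: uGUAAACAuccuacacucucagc
miR-30e-5p: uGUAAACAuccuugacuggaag
miR-17-5p: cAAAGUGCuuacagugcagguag
miR-20a-5p: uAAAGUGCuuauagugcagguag
miR-106b-5p: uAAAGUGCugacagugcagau

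The third set holds pairs with the same seed whose members parted, and the fourth decreased miRNAs of the X chromosome with miR-335-3p, which the study followed up.
miR-27a-3p: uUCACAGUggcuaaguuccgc
miR-27b-3p: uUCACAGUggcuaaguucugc
miR-148a-3p: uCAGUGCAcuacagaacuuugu
miR-148b-3p: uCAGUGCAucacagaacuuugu
miR-374a-3p: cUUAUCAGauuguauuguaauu
miR-374b-5p: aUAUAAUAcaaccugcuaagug
miR-374c-3p: cACUUAGCagguuguauuauau
miR-450b-5p: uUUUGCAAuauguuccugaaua
miR-335-3p: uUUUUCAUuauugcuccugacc

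The 3 libraries held 789685, 900424 and 633318 counts at 0, 1 and 5 ng/mL, and 902, 955 and 924 miRNAs had a count. A count of 0 allows up to 3 counts, or 3.12, 3.01 and 3.49 normalised counts. The libraries were dominated by few miRNAs, since the 10 most abundant took 73.8 to 79.0% of a library. Of the 10 with the highest mean level over the 3 libraries, let-7f-5p, let-7g-5p, let-7i-5p and miR-26a-5p had log2 ratios at 5 ng/mL between -0.03 and 0.10. The most abundant, miR-21-5p, had log2 ratios of 0.23 (1 ng/mL) and -0.32 (5 ng/mL), both short of 1.4-fold.

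Markers of cell identity were checked before the comparisons. In the epithelial miR-200 family with miR-205, 5 of 11 members were measured, and counts over all members summed to 228, 400 and 320 at 0, 1 and 5 ng/mL. The labelled epithelial identity was thus weakly marked by this family, with miR-141-3p at 2, 8 and 1 counts and miR-205-5p at 0, 1 and 0. A second epithelial group, the miR-183/96/182 cluster, summed to 4108, 3923 and 3223 counts, and its 3 members that met the abundance criterion had log2 ratios at 5 ng/mL of -0.35 to 0.15. Of the mesenchymal markers, the miR-199 and miR-214 group had 0 of 6 members measured and 6, 4 and 3 counts in all. The other mesenchymal group, miR-143 and miR-145, summed to 154, 1758 and 1188 counts at 0, 1 and 5 ng/mL and is described below. Leukocyte markers summed to 9, 2 and 0 counts, muscle markers to 5, 1 and 2, and the liver marker miR-122 to 1, 5 and 6. Erythroid markers summed to 18, 14 and 16 counts, with miR-451a and both arms of miR-144 at 0 in each library. Of these 19 leukocyte, muscle, liver and erythroid markers, 11 had no count in any A549 library. The endothelial marker miR-126-3p was present at 1003, 1280 and 1166 counts, with a log2 ratio at 5 ng/mL of 0.38 (95% interval 0.26 to 0.50). Of 7 neural markers 3 were measured, and the 7 summed to 1836, 1803 and 1588 counts. They were led by miR-128-3p, at 1357, 1299 and 1256 counts, and miR-9-5p, at 447, 484 and 314, whose log2 ratio at 5 ng/mL was -0.35 (-0.56 to -0.14).

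The comparison of each dose with the control asked which miRNAs differ after TGF-β1. The thresholds of the study were kept, an ND, the log2 of the normalised count plus 1, of at least 8 in the higher library and a fold change of at least 1.4. At 5 ng/mL, 75 of 141 miRNAs passed, which is 53.2%, with 38 higher (27%) and 37 lower (26.2%). The lower dose gave 67 of 137 (48.9%), of which 37 were higher (27%) and 30 lower (21.9%). In what follows, 3 counts in a row are the raw counts at 0, 1 and 5 ng/mL, and a ratio without further label is the log2 ratio at 5 ng/mL with its 95% counting interval. Passing was common, and the counts of members below are to be read against these shares. An ND of 8 was needed only in the higher library, so a miRNA could enter solely through the library where it was high. The split leaned with the scaling. Total-count scaling gave 51 higher and 26 lower at the higher dose, and 23 and 39 at the lower. Without scaling the split at 5 ng/mL was 31 and 52, and at 1 ng/mL it was 29 and 38 with DESeq2 size factors and 31 and 40 with quantile normalisation. The median log2 ratio of the miRNAs compared shifted by 0.16 (5 ng/mL) and -0.14 (1 ng/mL) under total-count scaling, and by -0.16 (5 ng/mL) without scaling. Among those past the criteria at the higher dose, 30 of the 38 increases and 26 of the 37 decreases passed under each of 6 other scalings, and 0 changed sign. A change of level in every cell and a change in the share of cells with a miRNA cannot be told apart in these bulk libraries.

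**Figure D1:**
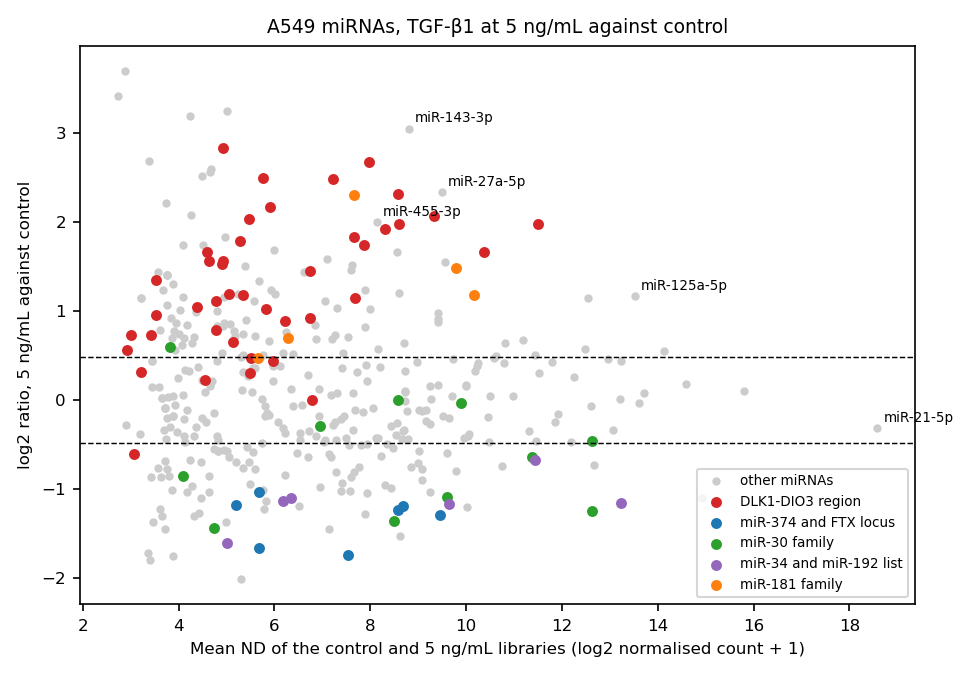
Log2 ratio of each measured miRNA at 5 ng/mL against control (y axis) by its mean ND in both libraries (x axis). Points are miRNAs, colours mark the groups named in the legend, and dashed lines mark 1.4-fold. The DLK1-DIO3 miRNAs lie above 0 with 1 exception at -0.60, while the miR-374 and FTX miRNAs all lie below -1.

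The broadest increase was that of the DLK1-DIO3 region on 14q32, an imprinted locus whose miRNAs are made from long noncoding transcripts of the maternal copy and are known from embryonic and placental tissue. All 11 members that met the abundance criterion were higher past 1.4-fold at 5 ng/mL, and all 11 were at 1 ng/mL, against the 27% of all miRNAs compared that were higher at each dose. Of the 11, only miR-127-3p, miR-381-3p and miR-654-3p had an ND of at least 8 in the control. The others entered through a treated library, where they were high, so the 11 of 11 was partly fixed by the criterion. Summed over the 91 listed members, the region held 4287, 13296 and 13567 counts at 0, 1 and 5 ng/mL. These were 0.543% (exact interval 0.527 to 0.559), 1.48% and 2.14% of the libraries, and the normalised sums were 2.99-fold and 3.54-fold the control. Of 42 measured members, 29 had an interval above no change at 5 ng/mL and 0 below, against 32.7% above and 27.4% below among the 398, or 60.1% in either direction. At 1 ng/mL it was 30 above and 0 below, against 26.9% and 23.6%, or 50.5% in either direction. The median log2 ratio at 5 ng/mL was 1.38 for the 10 measured proximal and 1.25 for the 32 measured distal members, against 0.06 over the 398. The corresponding medians at 1 ng/mL were 1.35, 1.47 and 0.03. Under total-count scaling at 1 ng/mL, 4 rather than 7 of the distal members passed.

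The measured members lay on GRCh38 chromosome 14 between 100869075 and 101066786. At the proximal end, miR-493-3p counted 164, 650 and 735 at 0, 1 and 5 ng/mL, and its higher-dose log2 ratio was 2.32 (2.08 to 2.58). Its partner miR-493-5p counted 188, 503 and 664, so both arms of the hairpin were higher past the criteria in both treated libraries. miR-127-3p, which lies antisense to the imprinted gene RTL1, counted 720, 2022 and 2041, and miR-370-3p counted 122, 424 and 368. Their log2 ratios at 5 ng/mL were 1.66 and 1.75.

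In the distal group, miR-543 counted 95, 394 and 550, the largest ratio of the region among members past the criteria at 2.68 (2.38 to 3.02), and its hairpin lies in an intron of the noncoding gene MEG8. miR-411-5p, also in MEG8, counted 60, 277 and 305, and its log2 ratio was 2.49 (2.10 to 2.93). The most abundant member, miR-381-3p, counted 1398, 5016 and 4942, a log2 ratio of 1.98 (1.90 to 2.07). miR-654-3p counted 301, 1111 and 1137, miR-409-3p counted 156, 491 and 532, and miR-134-5p counted 102, 307 and 328. Each of these was lowest in the control, and both treated libraries passed the criteria.

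Members of lower abundance varied more. The highest was miR-485-3p, with 10, 25 and 69 counts and a higher-dose log2 ratio of 2.83 (1.98 to 4.07). miR-539-3p stood apart, at 105, 91 and 94 counts and a log2 ratio of 0.00 (-0.42 to 0.42). miR-410-3p had 9, 15 and 5 counts, too few to detect a change. In the BEAS-2B libraries the 42 members had median log2 ratios of -0.04 (5 ng/mL) and 0.03 (1 ng/mL), and the difference between the lines was not tested. On chromosome 14 outside the region, miR-345-5p was lower past the criteria, with 276, 195 and 175 counts.

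The largest single increase past the criteria was that of miR-143-3p, known from smooth muscle and other mesenchymal cells. It counted 148, 1658 and 1106, and its normalised count at 5 ng/mL was 8.31-fold the control, a log2 ratio of 3.05 (2.81 to 3.32). The log2 ratio was larger still at the lower dose, 3.43 (3.19 to 3.69). Its neighbour miR-145-5p counted 5, 70 and 48 and stayed below an ND of 8, with a higher-dose log2 ratio of 3.20 (2.10 to 5.11). Both minor arms followed, with 0, 13 and 12 counts for miR-143-5p and 1, 17 and 22 for miR-145-3p. The miR-143 hairpin lies on chromosome 5 from 149428918 to 149429023, on the plus strand in an exon of the noncoding gene CARMN.

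Both arms of miR-455, whose hairpin lies in an intron of the collagen gene COL27A1, were higher. miR-455-3p counted 134, 365 and 484 and miR-455-5p 204, 638 and 579, with log2 ratios at 5 ng/mL of 2.01 and 1.66. miR-140-3p, which like miR-455 is known from cartilage, was lower at 261, 163 and 114 counts, a log2 ratio of -1.03 (-1.36 to -0.71). Its 5p arm, at 158, 152 and 116 counts, had an interval that included no change.

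In the miR-181 family, known to act in lymphoid cells and in TGF-β signalling, 3 of 3 members that met the abundance criterion were higher at both doses. Among all miRNAs compared 27% were higher at each dose, and miR-181a-2-3p met the criterion through the treated libraries alone. miR-181a-5p counted 737, 1807 and 1495 and miR-181b-5p 507, 1340 and 1272, with log2 ratios at 5 ng/mL of 1.18 and 1.49. The arm made only from the chromosome 9 hairpin, miR-181a-2-3p, counted 87, 303 and 388, a ratio of 2.31 (1.98 to 2.67). The corresponding arm of the chromosome 1 hairpin, miR-181a-3p, counted 40, 64 and 50, a ratio of 0.47 (-0.15 to 1.12).

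Members of the miR-99b/let-7e/miR-125a cluster on chromosome 19 and some of its paralogues were higher by smaller factors. miR-125a-5p counted 7505, 11901 and 15118, and its higher-dose log2 ratio was 1.17 (1.13 to 1.21). miR-125b-5p, which shares its seed, had a ratio of 0.68, and miR-99b-5p one of 0.57. Of the cluster's 4 members that met the abundance criterion, 3 were higher past 1.4-fold at 5 ng/mL, against 27% of all miRNAs compared. With DESeq2 size factors it was 1, and without scaling 1. The paralogues miR-100-5p and miR-99a-5p differ by 1 base (A16U, counted from 1 at the 5′ end of miR-100-5p). Of these, miR-100-5p had a ratio of 0.55, which passed under 2 of 6 other scalings, and miR-99a-5p one of -0.07, and the share of miR-100-5p in the pair was 69.8%, 81.2% and 78.0%. The let-7 family is best known for repressing growth genes. Of its 8 miRNAs that met the abundance criterion, 2 were higher at 5 ng/mL and 0 at 1 ng/mL. Among all miRNAs compared 27% were higher at each dose, so the let-7 count at 5 ng/mL was near the general share. The 2 were let-7d-5p at 0.64 and let-7e-5p at 0.51, and let-7e-5p passed under 2 of 6 other scalings.

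A group of short RNAs made outside the usual pathway was also higher at 5 ng/mL. miR-1246 counted 424, 844 and 1111 and miR-320a 1382, 1663 and 1930, with log2 ratios of 1.55 and 0.64. Other increases were those of miR-151a-3p, from 3832 to 6316 and 7608 counts, of miR-582-3p, from 245 to 562 and 506, and of miR-218-5p, from 170 to 325 and 310. miR-16-2-3p counted 474, 958 and 797, a ratio of 0.91, while miR-16-5p, a cell cycle regulator, had a ratio of -0.43 (-0.64 to -0.23), short of 1.4-fold. In the miR-200 family miR-200b-3p had 139, 271 and 204 counts and passed at 1 ng/mL alone, as it did under 3 of 6 other scalings. At 5 ng/mL its ratio was 0.71, past 1.4-fold, but it lay below the abundance criterion.

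**Figure D2:**
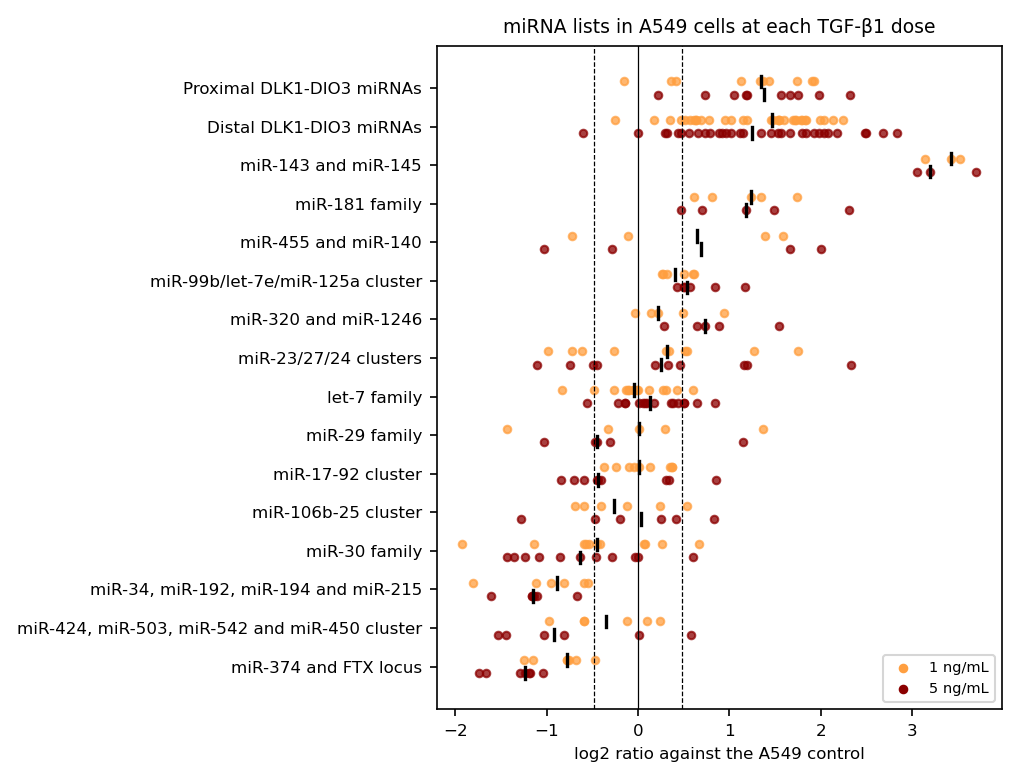
Log2 ratios of the measured members of 16 miRNA lists at 1 ng/mL (orange) and 5 ng/mL (dark red) against the shared A549 control. Points are miRNAs, black bars are medians, and dashed lines mark 1.4-fold. The medians of the DLK1-DIO3, miR-143/145 and miR-181 lists lie above 1 at both doses, and that of the miR-374 and FTX list lies at -0.77 and -1.23.

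The clearest decrease was at the FTX locus on the X chromosome, a noncoding gene near XIST whose introns hold the miR-374 hairpins. All 4 members that met the abundance criterion, of which 2 form the strand pair described next, were lower at 5 ng/mL, against 26.2% of all miRNAs compared, and 3 were at 1 ng/mL, against 21.9%. In the 5 ng/mL comparison, miR-374a-3p and miR-374b-5p met the criterion through the control alone. All 7 measured members had an interval below no change at both doses, against 27.4% (5 ng/mL) and 23.6% (1 ng/mL) of the 398, and their median log2 ratio at 5 ng/mL was -1.23. miR-374a-3p counted 324, 209 and 86, the lowest ratio past the criteria at -1.74 (-2.11 to -1.40). miR-374a-5p counted 1061, 791 and 387, a ratio of -1.29 (-1.47 to -1.12). Both were lowest at 5 ng/mL, with log2 ratios of that library to the 1 ng/mL library of -1.06 and -0.82 and intervals below no change.

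miR-374b-5p counted 559, 343 and 212 and miR-374c-3p 596, 361 and 232. They are exact reverse complements of each other over 22 bases, since both lie on chromosome X at 74218587 to 74218608 on opposite strands. The share of miR-374b-5p in the pair was 48.4% (exact interval 45.5 to 51.3), 48.7% and 47.7%. The counting was not stated to use strand, so the reads of this pair cannot be told apart, and the counts of members above include both strands. miR-374b-3p and miR-374c-5p likewise overlap on opposite strands, at 74218557 to 74218578 and 74218561 to 74218582. In the BEAS-2B libraries the 7 measured members of the list had a median log2 ratio at 5 ng/mL of 0.41, and the difference between the lines was not tested.

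Elsewhere on the X chromosome, miR-450b-5p counted 642, 337 and 198, a ratio of -1.53 (-1.77 to -1.30), and miR-450a-5p counted 837, 576 and 365, a ratio of -1.03. The neighbouring miR-542-3p counted 221, 152 and 72 and lay below the abundance criterion, while miR-503-5p, at 591, 655 and 532 counts, had a ratio of 0.01 (-0.16 to 0.18). miR-424-3p was higher at 224, 275 and 299 counts, a ratio of 0.58 (0.32 to 0.83) that passed under 3 of 6 other scalings. Members of this cluster therefore differed in direction and size. Across 6 X-linked lists, 19 of 29 measured miRNAs had an interval below no change at 5 ng/mL and 2 above, against 27.4% and 32.7% of the 398.

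In the miR-30 family, known as a brake on mesenchymal genes, 7 members met the abundance criterion. Of these, 4 were lower at 5 ng/mL, against 26.2% of all miRNAs compared. The lower dose gave 3 of 7, against a share of 21.9%. In the 5 ng/mL comparison, miR-30b-5p met the criterion through the control alone, so its pass was partly fixed by the criterion. miR-30a-5p counted 9385, 6439 and 3545, a ratio of -1.24 (-1.30 to -1.19), and miR-30b-5p 554, 261 and 193, a ratio of -1.36 (-1.60 to -1.12). miR-30e-5p and miR-30c-5p had ratios of -1.09 and -0.64. miR-30d-5p, at 7160, 5555 and 4641 counts, stopped short of 1.4-fold with -0.46. The 3p arms of miR-30a and miR-30e, which share a seed of their own, had ratios of -0.03 (-0.17 to 0.10) and 0.00 (-0.22 to 0.22). The sparse miR-30d-3p, at 41, 29 and 13 counts, had a ratio of -1.44 (-2.52 to -0.57).

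The miRNAs known as targets of p53 formed another group. All 3 members of the miR-34 and miR-192/194/215 list that met the abundance criterion were lower at both doses. The shares over all miRNAs compared were 26.2% (5 ng/mL) and 21.9% (1 ng/mL). All 6 measured members had an interval below no change at both doses, against 27.4% (5 ng/mL) and 23.6% (1 ng/mL) of the 398. miR-192-5p, one of the 10 most abundant miRNAs of the control, counted 13886, 7408 and 5545, a ratio of -1.16 (-1.21 to -1.12). miR-215-5p, which carries the same seed and differs in 2 other bases (C1A, C20A, counted from the 5′ end of miR-192-5p), counted 1142, 545 and 455, also a ratio of -1.16 (-1.33 to -1.01). Their hairpins lie on chromosomes 11 and 1, and the share of miR-192-5p in the pair was 92.4%, 93.1% and 92.4%. miR-194-5p, made from hairpins beside both, counted 3384, 2399 and 1902. miR-34a-5p was sparse, with 102, 70 and 41 counts.

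The miR-17 seed group, which promotes cell cycle entry, had 3 of 4 members lower at 5 ng/mL, against 26.2% of all miRNAs compared. miR-17-5p counted 629, 550 and 345, miR-20a-5p 915, 732 and 541, and miR-106b-5p 352, 242 and 129, with log2 ratios at 5 ng/mL of -0.70, -0.60 and -1.28. The fourth, miR-93-5p, had a ratio of -0.47. At 1 ng/mL 1 of these 4 passed, miR-106b-5p at -0.59, against 21.9% lower among all miRNAs compared. In both comparisons miR-106b-5p met the abundance criterion through the control alone, where it was high, so its pass was partly fixed by the criterion. Of their cluster neighbours, miR-92a-3p and miR-25-3p had ratios of 0.30 (0.23 to 0.38) and 0.41 (0.31 to 0.51). The less abundant miR-19a-3p counted 95, 92 and 47 and miR-19b-3p 103, 138 and 67, both lower at 5 ng/mL. Of 9 measured members of the miR-17-92 cluster, 4 had an interval below no change at 5 ng/mL and 2 above. In the miR-106b-25 cluster it was 3 below and 1 above of 6, against 27.4% below and 32.7% above among the 398.

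Paralogous pairs parted in the miR-23/27/24 group, whose members act in lipid and vascular biology. miR-27b-3p counted 44006, 27565 and 18324, a ratio of -1.10 (-1.13 to -1.08), while miR-27a-3p counted 22368, 33082 and 22676, a ratio of 0.18 (0.15 to 0.21). At 1 ng/mL miR-27a-3p passed with 0.51, as it did under 2 of 6 other scalings. The sequences printed above differ at 1 base (C19U, counted from the 5′ end of miR-27a-3p). Within a library, where no scaling enters, miR-27a-3p made up 33.7% (exact interval 33.3 to 34.1), 54.5% (54.2 to 54.9) and 55.3% (54.8 to 55.8) of the pair. miR-23b-3p, encoded beside miR-27b, was likewise lower with a ratio of -0.74. miR-23a-3p and miR-24-3p had ratios of 0.33 and 0.46, and the share of miR-23a-3p in the miR-23 pair was 31.7%, 47.5% and 49.5%. miR-24-3p is made from a hairpin in each cluster, so it cannot separate them. Of its sparse partner arms, miR-24-2-5p (chromosome 19) counted 23, 59 and 48 and miR-24-1-5p (chromosome 9) counted 10, 13 and 21. In both treated libraries the chromosome 19 member of the miR-23 pair and of the miR-27 pair gained on its chromosome 9 partner. How the counting assigned reads that match both members of such pairs was not stated.

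A similar parting was seen for miR-148b-3p and miR-148a-3p, which silence DNA methyltransferase genes and differ at 2 bases (C9U, U10C, counted from the 5′ end of miR-148a-3p). miR-148b-3p counted 1500, 952 and 584 and miR-148a-3p 924, 965 and 921. The share of miR-148a-3p was 38.1% (36.2 to 40.1), 50.3% (48.1 to 52.6) and 61.2% (58.7 to 63.7) at 0, 1 and 5 ng/mL.

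Other decreases included miR-340-5p, with 338, 248 and 146 counts, miR-4521, with 471, 249 and 211, and both arms of miR-10a, a HOX cluster miRNA, with ratios of -0.73 and -0.75. miR-21-3p counted 258, 210 and 131, a ratio of -0.81 (-1.13 to -0.51). The collagen-targeting miR-29a-3p counted 5289, 4360 and 3409, and its ratio of -0.47 (-0.53 to -0.41) was just short of 1.4-fold. It passed as lower with DESeq2 size factors, quantile normalisation, TMM within A549 and no scaling.

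The study selected 7 miRNAs on these same libraries, so their direction is no independent evidence. In A549 cells at 5 ng/mL, miR-27a-5p and let-7e-5p were higher, miR-17-5p, miR-20a-5p, miR-374b-5p and miR-335-3p were lower, and miR-3184-5p stopped at 0.43. miR-3184-5p counted 2954, 3382 and 3566 and shares a run of 21 bases with the reverse complement of miR-423-3p, so its reads are uncertain in the same way. miR-335-3p counted 358, 300 and 206, and its ratios were -0.31 (-0.53 to -0.08) at the lower and -0.63 (-0.89 to -0.38) at the higher dose. Its level passed 1.4-fold at 5 ng/mL under 5 of 6 other scalings. miR-335-5p, from the same hairpin in an intron of the imprinted gene MEST, counted 39, 39 and 22. The 5p arm made up 9.82% (7.08 to 13.2), 11.5% (8.31 to 15.4) and 9.65% (6.15 to 14.2) of the hairpin's reads, so the arms of miR-335 kept similar proportions within counting error.

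**Figure D3:**
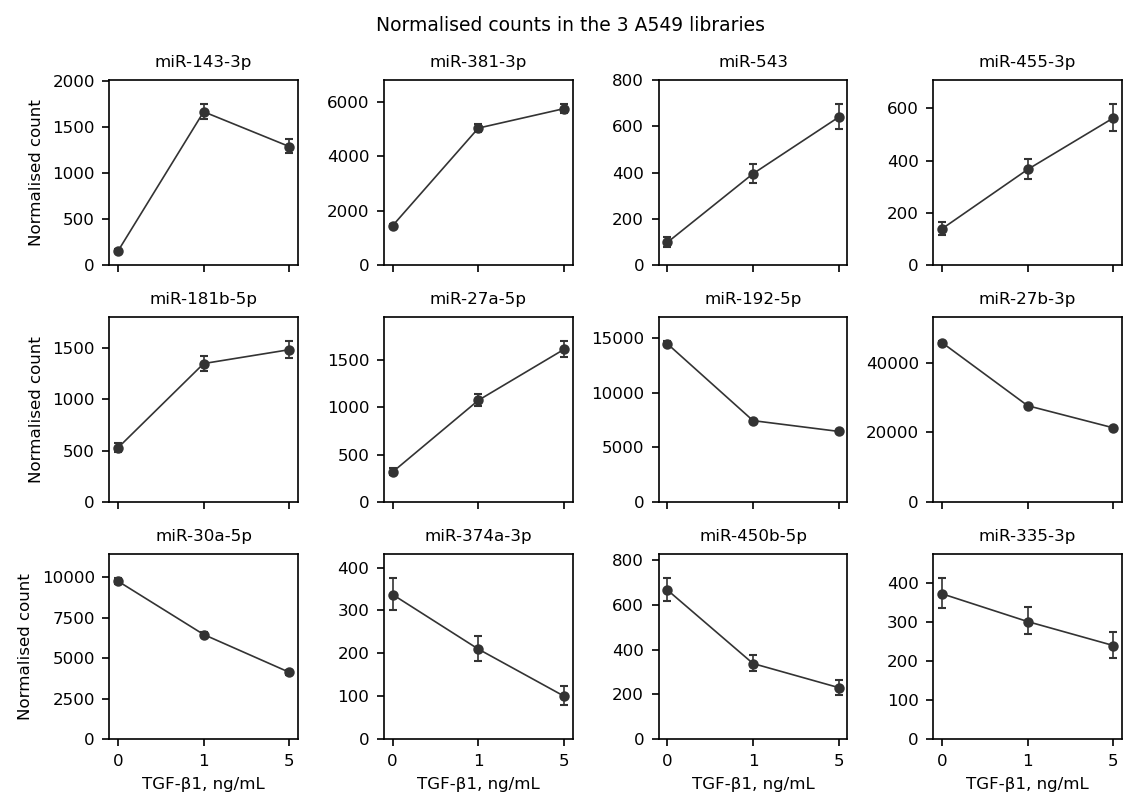
Normalised counts of 12 miRNAs (y axis, linear from 0) in the A549 libraries at 0, 1 and 5 ng/mL TGF-β1 (x axis, evenly spaced doses). Points are single libraries and bars are exact 95% Poisson intervals, which cover counting error only. miR-143-3p is highest at 1 ng/mL, while miR-374a-3p and miR-30a-5p are lowest at 5 ng/mL.

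The dose comparison set the treated libraries against each other, and both ratios to control share the same control library. Of 130 miRNAs compared, 22 passed the criteria between the treated libraries, 11 in each direction. The miRNAs whose ratios to control differed most between the doses were miR-374a-3p and miR-374a-5p, given above, with miR-589-5p, miR-101-3p and miR-3182. miR-589-5p counted 147, 181 and 312, and its ratios to control were 0.25 (-0.07 to 0.57) at the lower and 1.24 (0.96 to 1.54) at the higher dose. miR-101-3p, a repressor of the chromatin enzyme EZH2, counted 680, 739 and 356, with ratios of 0.07 (-0.08 to 0.22) and -0.77 (-0.96 to -0.59). miR-3182 counted 170, 180 and 270, with ratios of 0.03 and 0.83. These 3 were near the control at 1 ng/mL and moved at 5 ng/mL. In the other direction, miR-143-3p was lower at 5 than at 1 ng/mL, by a log2 ratio of -0.37 (-0.48 to -0.26).

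The choice of arm was compared within each library, a measure that no scaling can change. Of 77 hairpins with enough reads on both arms, the exact interval of the odds ratio of 5p to 3p reads excluded 1 for 30 at 5 ng/mL (39.0%), 17 toward the 5p and 13 toward the 3p arm. At 1 ng/mL it did so for 23 (29.9%), 14 toward the 5p and 9 toward the 3p arm. In miR-27a, the 5p arm is the minor strand. It counted 306, 1070 and 1385, and its share was 1.35% (1.20 to 1.51), 3.13% (2.95 to 3.32) and 5.76% (5.47 to 6.06), an odds ratio at 5 ng/mL of 4.46 (3.94 to 5.08). The rise of miR-27a-5p was thus not matched by its 3p arm, and the 3 intervals do not overlap.

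The 5p arm lost ground in several hairpins whose 5p arm had a ratio below 0. In miR-340 its share was 92.1% (88.9 to 94.6), 88.3% (83.9 to 91.8) and 74.9% (68.2 to 80.8), and in miR-424 it was 46.8%, 40.6% and 25.1%. In miR-30a it was 91.0%, 84.9% and 81.4%, and in miR-30e 74.8%, 67.3% and 58.2%. In miR-106b the 3p share was 70.0%, 76.5% and 83.3%. Within the DLK1-DIO3 region the arms of 2 hairpins shifted in opposite directions, with the 5p share at 40.6%, 60.7% and 72.0% in miR-369 and at 24.6%, 10.9% and 10.4% in miR-409. Hairpins with sparse arms gave wide intervals. miR-126-5p had 11, 8 and 3 counts, miR-494-5p had 0, 8 and 11, and miR-18a had 30, 40 and 20 counts on the 5p and 23, 23 and 38 on the 3p arm.

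**Figure D4:**
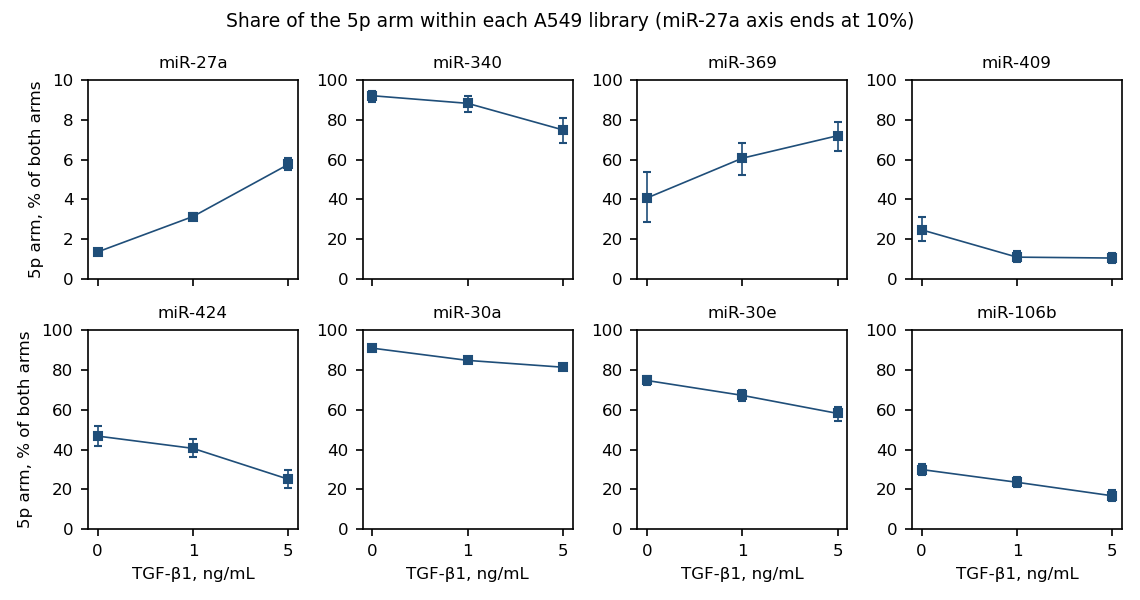
Share of the 5p arm in the reads of both arms (y axis, percent, with the miR-27a axis ending at 10%) for 8 hairpins at 0, 1 and 5 ng/mL TGF-β1 (x axis). Points are single libraries and bars are exact 95% binomial intervals. The 5p share is higher in both treated libraries in miR-27a and miR-369 and lower in both treated libraries in the other 6 hairpins. The hairpins were picked for display and are not the 8 with the largest shifts. Over all 77 hairpins, the interval at 5 ng/mL excluded 1 toward the 5p arm in 17 and toward the 3p arm in 13.

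Base composition varied weakly with the ratio at the higher dose. Among the 131 of 141 miRNAs at 5 ng/mL with a sequence (92.9%), Pearson's r between GC content and the log2 ratio was 0.22 and Spearman's rho was 0.24. At 1 ng/mL r was 0.09 across 127 miRNAs, and in the BEAS-2B libraries at the higher dose it was -0.02 across 116. Across the same A549 miRNAs, r of the log2 ratio with the ND of the control was -0.36 (5 ng/mL) and -0.33 (1 ng/mL). With sequence length it was -0.22 at both doses. The control enters both its ND and the ratio, so the r with ND is partly built in. All points in a comparison share the same libraries, and the miRNAs are not independent. Of 27 miRNAs with a GC content below 40%, 3 were higher and 13 lower at 5 ng/mL, and of 55 with at least 50%, 17 were higher and 6 lower. The most AT-rich decrease was miR-374a-3p with 22.7% GC, and miR-450b-5p and miR-340-5p had 27.3%. List medians with the linear trend on GC content removed are among the recomputed medians counted at the end. The part of base composition in the decreases of the miR-374 and miR-450 miRNAs was not tested.

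**Figure D5:**
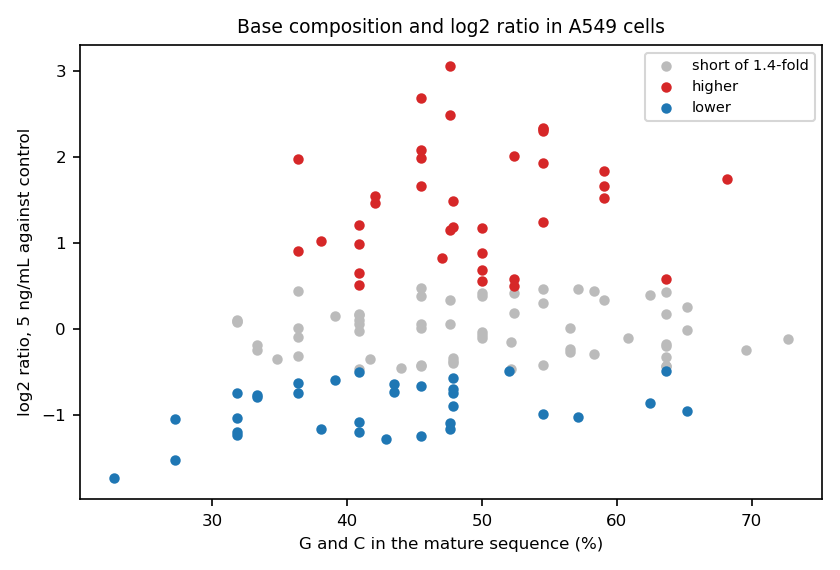
Log2 ratio at 5 ng/mL against control (y axis) by the percentage of G and C in the mature sequence (x axis) for the 131 A549 miRNAs that met the abundance criterion and had a sequence. Red points were higher and blue points lower past 1.4-fold, and grey points were short of it. The lowest ratio, -1.74, belongs to the miRNA with the lowest GC content, 22.7%.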

How the data were processed

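Small RNA libraries were compared as read counts per mature miRNA, as deposited by the authors without normalisation. Bowtie2 and bedtools are named in the submitters' processing notes. Their versions, the genome build, the miRNA annotation and the use of strand were not given in the sources used here. Counts were scaled by TMM over all 6 libraries (edgeR 4.0.16, R 4.3.3) to the mean effective library size of 749498. ND was log2(normalised count + 1), a log2 ratio was a difference in ND, and an ND of 8 equals 255 normalised counts. Ratios carry the 95% exact conditional binomial (Clopper-Pearson) interval. Without replicates no p-value was computed, and reads without molecular identifiers are not independent molecules. The procedure was run on simulated counts with known fold changes, Poisson counting error and known scaling. Spread between cultures or library preparations and error in the scaling were not simulated, so the run says nothing about them.

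Hairpins were compared by arm with at least 50 reads in every library and 10 on the minor arm in at least 1 library, and those whose copies have separately named arms were left out. Hairpin positions came from RefSeq on GRCh38.p14, and host genes from GENCODE on GRCh38. DESeq2 1.42.0 size factors, limma 3.58.1 quantile normalisation, total counts with and without miR-21-5p, TMM within A549 and no scaling were alternatives. Counts past the criteria and list medians were also recomputed with the linear trend of the log2 ratio on GC content removed. Python 3.11.15, numpy 2.4.6, pandas 2.3.3, scipy 1.17.1 and matplotlib 3.10.9 were used.

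Named were the 15 highest and 15 lowest miRNAs at 5 ng/mL and the 5 and 5 at 1 ng/mL past the criteria, members of the lists described, the 10 most abundant, miR-335, the 8 hairpins with the largest arm shifts, the 5 that differed most between doses and the 7 selected by the study. The paralogue pairs were chosen after their values were seen. Members, lists and rules were chosen with earlier results of these data known.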

Additional observations from a re-analysis of the deposited data

Results flagged for a closer look

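For 7 of the miRNAs named, both treated A549 libraries moved one way and both treated BEAS-2B libraries the opposite way, with each of the 4 counting intervals excluding no change. The difference between the lines was not tested, and both doses share a control in each line. The log2 ratio at 5 ng/mL in A549 minus that in BEAS-2B cells was -2.41 for miR-374a-3p, -1.81 for miR-374b-5p, -1.88 for miR-4521, -1.47 for miR-148b-3p, -1.37 for miR-17-5p and -1.40 for miR-20a-5p, where A549 cells were the lower. For miR-27a-3p it was 0.56, where A549 cells were the higher. Some of its ratios were small, with 0.18 in A549 at 5 ng/mL and -0.04 in BEAS-2B at 1 ng/mL. The former ranged from 0.02 to 0.48 under 6 other scalings. BEAS-2B ratios were computed with TMM alone, so its opposite direction may depend on the scaling.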

How the results depend on the processing

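With 1 library per group, no replicate could be left out and outlying samples could not be looked for. No paired analysis was possible because each group had 1 library. Of 28 recomputed counts of miRNAs past the criteria, 24 stayed within 1.5 times. With an ND of at least 8 in both libraries the count was 41 at 5 ng/mL and 44 at 1 ng/mL, and with a fold change of at least 2 it was 42 and 21, both stricter by construction. Of 565 list medians, 496 stayed within the counting interval of their middle members, 68 left it, and 1 reversed, a reversal being counted only for values past 1.4-fold. It was the median of the cluster of miR-424, miR-503, miR-542 and miR-450 at 5 ng/mL, which became 0.0097 over 9 members with any count. Of 840 values of named miRNAs, 685 stayed within their intervals, 155 moved and 0 of those past the criteria reversed. Among values short of 1.4-fold or of the abundance criterion, the sign differed between scalings for 7 of 16 list medians at 5 ng/mL and 6 of 24 at 1 ng/mL, and for 5 of 19 and 6 of 28 named miRNAs. Depth limits miRNAs of few counts, such as miR-410-3p.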
